A study of Mus musculus with 3 samples.

Results

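Transcripts of 10 regulators of the G1 phase were described in mouse embryonic stem cells of the E14 line (129/Ola background) after translation had been blocked. The 10 genes were the D-type cyclins Ccnd1, Ccnd2 and Ccnd3, the E-type cyclins Ccne1 and Ccne2, their kinases Cdk4 and Cdk2, the inhibitor Cdkn1b, the phosphatase Cdc25a and the transcription factor E2f1. They were taken by symbol, and all 10 were found once each among the 32285 genes of the deposited matrices. Cells were grown with serum and leukemia inhibitory factor, and exposure began 24 h after seeding. One library came from cells given 250 µg/mL cycloheximide, an inhibitor of translation elongation, for 3 h, and 1 from cells given it for 6 h, both in 0.007% ethanol. The control library came from cells given ethanol alone for 6 h, and a 3 h exposure to ethanol alone was not analysed here. Each group was 1 library of 10x Genomics 3' v3 single-cell RNA sequencing of cells that had been frozen and thawed. No difference below therefore has a replicate check, and no test between conditions was made. The number of cultures behind each library is not stated in the labels.

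D-type cyclins pair with Cdk4 or Cdk6 and begin to phosphorylate the retinoblastoma protein, which releases E2F factors. E2F then drives transcription of cyclin E, Cdc25a and genes of DNA replication, and cyclin E with Cdk2 completes the passage into S phase. Cdkn1b (p27) binds and inhibits cyclin E-Cdk2 complexes, and Cdc25a removes inhibitory phosphates from Cdk2. In mouse embryonic stem cells G1 is short, D-type cyclins are described as low, and cyclin E-Cdk2 activity is described as high through most of the cycle. Several of these proteins are short-lived, but only transcripts were measured here.

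Counts were taken over barcodes with at least 15000 UMIs (unique molecular identifiers, 1 per captured molecule) and 1 to 20% of UMIs from mitochondrial genes. The libraries held 127601369, 115188502 and 150987519 UMIs in all for the control, 3 h and 6 h. This selection left 2187 cells of the control library, 1739 of the 3 h library and 2554 of the 6 h library, with a median of 43160, 51726 and 46200 UMIs per cell. The lower mitochondrial limit removed 62 control barcodes and 1 and 8 from the 3 h and 6 h libraries. The libraries shared 3, 3 and 1 cell barcodes in pairs. The 8 embryonic stem cell markers together had 6656, 7664 and 6952 CPM (UMIs summed over cells and scaled to a total of 1000000) in the control, 3 h and 6 h libraries, of which Dppa5a alone had 4771, 5327 and 5475 CPM. All 8 had a higher CPM at 3 h than in the control, but they did not move together at 6 h. Only Dppa5a and Nanog had a higher CPM at 6 h than in the control, and the other 6 a lower one, among them Zfp42 (455 to 240 CPM) and Sox2 (213 to 146 CPM). The 5 fibroblast markers summed to between 2.23 and 3.09 CPM, and the 3 markers of 2-cell-like cells to at most 0.574 CPM. Zfp352 of the latter, Elf5 of trophoblast and Col3a1 of fibroblasts were at 0 UMIs in all 3 libraries. Primitive endoderm, mesoderm, neural and trophoblast markers summed to between 4.05 and 21.3 CPM per list, and the trophoblast sum moved most, from 8.51 to 18.6 and 21.3 CPM. Tfap2c alone made up 7.74, 16.8 and 18.3 CPM of it, and Cdx2 and Gata3 had at most 2.08 CPM each. The part of these differences in the results below was not tested.

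CPM sets every library to the same total. Over the 7608 genes that averaged 10 CPM or more, the median log2 ratio to the control was 0.11 after 3 h and 0.17 after 6 h. TMM factors, a scaling that assumes that most genes do not change, moved this median by -0.17 and -0.29. Mean UMIs per cell, which keep differences in RNA content and also in sequencing depth per cell, moved it by 0.27 and 0.11. They were 50959, 61439 and 54942 in the control, 3 h and 6 h libraries, and RNA content and depth cannot be told apart here. Each member is therefore also given relative to the median gene, a value that no scaling changes. The 95% intervals cover counting error only, and both ratios to the control share the control library.

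Of the 10 members, 8 averaged 10 CPM or more, and Ccnd2 and Ccne2 were below it. Among the 8, 3 were at least 1.5-fold higher at 6 h than in the control (Cdc25a, Cdk2 and Cdkn1b), against 22.1% of all 7608 genes. One was at least 1.5-fold lower (Ccnd1), against 7.79% of all genes. Under TMM factors these counts were 0 higher and 2 lower (Ccnd1 and Ccnd3), against 11.6% and 16.9% of all genes, so the split of calls depends on the scaling. At 3 h over control 0 members passed 1.5-fold in either direction, against 13.9% of all genes higher and 2.13% lower. At 6 h over 3 h the counts were again 0 and 0, against 1.74% higher and 2.52% lower. Below the level limit, Ccnd2 was 3.87-fold lower and Ccne2 1.67-fold higher at 6 h than in the control. The 8 members had median log2 ratios of 0.19 and 0.28 for the shorter and longer exposure, beside 0.11 and 0.17 for all genes.

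**Figure D1:**
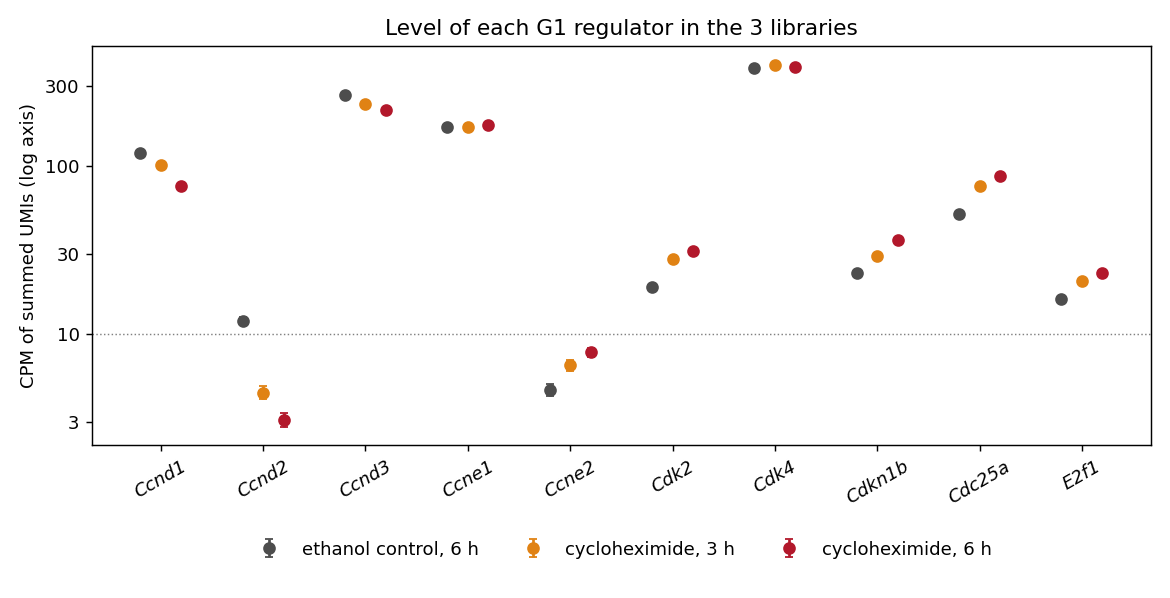
Level of each of the 10 genes in the 3 libraries, as CPM of UMIs summed over cells, on a log axis; bars are exact Poisson 95% intervals and the dotted line marks 10 CPM. By CPM the D-type cyclins step down from control to 3 h and 6 h, Ccne1 and Cdk4 stay within a narrow band, and the other 5 genes step up.

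The D-type cyclins were lower in both cycloheximide libraries than in the control by CPM, and each was lower at 6 h than at 3 h. Together they had 398 CPM in the control library, 340 CPM after 3 h of cycloheximide and 295 CPM after 6 h, with log2 ratios to the control of -0.23 and -0.43 in turn. Relative to the median gene the sum stood at -0.34 and -0.60. By mean UMIs per cell the 3 h ratio of the sum was 0.043, so the direction at 3 h depends on the scaling, whereas at 6 h it was -0.33. The E-type cyclins together had 177, 178 and 185 CPM in the control, 3 h and 6 h libraries. D-type cyclin transcripts thus had the higher sum in each library.

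Ccnd1, cyclin D1, is the family member best known as a target of growth factor signalling. It had 119 CPM in the control library (interval 117 to 122), 102 CPM after 3 h of cycloheximide (100.2 to 104) and 76.1 CPM after 6 h (74.7 to 77.6). The 3 intervals did not overlap, and the 6 h library was the lowest. The log2 ratio was -0.23 at 3 h (-0.26 to -0.19), which became 0.043 by mean UMIs per cell, and -0.65 at 6 h (-0.69 to -0.61). Relative to the median gene Ccnd1 was at -0.34 and -0.82.

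Ccnd2, cyclin D2, showed the lowest ratios of the 10 genes. It had 12.0 CPM in the control library (11.4 to 12.7), 4.48 CPM after 3 h of cycloheximide (4.09 to 4.90) and 3.10 CPM after 6 h (2.82 to 3.41), from 1337, 479 and 435 UMIs. Most of the difference was present at 3 h, where the log2 ratio was -1.42 (-1.57 to -1.27); at 6 h it was -1.95 (-2.11 to -1.80). Relative to the median gene Ccnd2 was at -1.53 and -2.12. In the cells of low mitotic share, from the ranking described below, the log2 ratios were -2.06 and -2.45. The ratio at 3 h was lower than those of all but 0.16% of the 7608 genes, which Ccnd2 itself did not enter because of its level.

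Ccnd3, cyclin D3, had 267 CPM in the control library (264 to 270), 234 CPM after 3 h of cycloheximide (231 to 237) and 216 CPM after 6 h (213 to 218). Its difference from the control was the smallest of the 3, with log2 ratios of -0.19 (-0.22 to -0.17) and -0.31 (-0.33 to -0.28), the former becoming 0.079 by mean UMIs per cell. Relative to the median gene Ccnd3 was at -0.30 and -0.47.

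The make-up of the family does not depend on scaling. Each UMI marks the 3' end of 1 molecule, so counts were not divided by gene length. Ccnd3 made up 67.0% of cyclin D UMIs among control cells (66.6 to 67.4), 68.7% among 3 h cells (68.2 to 69.2) and 73.1% among 6 h cells (72.7 to 73.6). Ccnd1 held 29.99% in the control and 29.98% at 3 h, and 25.8% at 6 h (25.4 to 26.2). Ccnd2 was the minor member, with 3.01%, 1.32% and 1.05%. Between control and 3 h the share of Ccnd1 thus did not differ beyond counting error, and it was lower at 6 h.

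Ccne1, cyclin E1, and Cdk4, the cyclin D kinase, had by CPM the levels closest to the control, an order that other scalings did not keep. Ccne1 had 172 CPM in the control library (169.9 to 174.8), 172 CPM after 3 h of cycloheximide (169.1 to 174.1) and 177 CPM after 6 h (174.9 to 179.3). The control and 3 h intervals overlapped, with a log2 ratio of -0.0068 (-0.036 to 0.022), and at 6 h the ratio was 0.039 (0.012 to 0.066). Cdk4 had 387 CPM (383 to 390), 403 CPM (399 to 407) and 393 CPM (390 to 396), with log2 ratios of 0.061 and 0.024. Both genes lay below the control under TMM factors, Ccne1 at -0.18 and -0.25 and Cdk4 at -0.11 and -0.26, and above it by mean UMIs per cell, Ccne1 at 0.26 and 0.15 and Cdk4 at 0.33 and 0.13. Relative to the median gene Ccne1 was at -0.12 and -0.13, and Cdk4 at -0.051 and -0.14.

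The promoter of Cdk4 is shown because Cdk4 is a textbook target of Myc, which binds the word CACGTG. The 250 bases before the start site in RefSeq on GRCm38.p6 (chr10:127063285-127063534, + strand) are given 5′ to 3′, with CACGTG in capitals:
Cdk4: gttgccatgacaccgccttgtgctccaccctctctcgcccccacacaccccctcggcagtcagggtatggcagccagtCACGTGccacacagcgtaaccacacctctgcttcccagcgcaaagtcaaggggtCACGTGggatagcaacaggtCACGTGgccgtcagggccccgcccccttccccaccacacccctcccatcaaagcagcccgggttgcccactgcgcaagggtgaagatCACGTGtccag
The word, which reads the same on both strands, begins 172, 118, 98 and 11 bases upstream of the start site. At least 4 copies were found in 7 of 32851 RefSeq windows of this length (0.0213%), and at least 1 in 6.02%. Myc itself had 35.8 CPM in the control library, 25.6 CPM after 3 h of cycloheximide and 6.78 CPM after 6 h. A word match is not evidence of binding in these cells. Myc protein was not measured, and a link between Myc and Cdk4 transcripts was not tested.

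Ccne2, cyclin E2, was higher in both cycloheximide libraries. It had 4.67 CPM in the control library (4.27 to 5.09), 6.55 CPM after 3 h of cycloheximide (6.08 to 7.06) and 7.80 CPM after 6 h (7.34 to 8.27), from 520, 700 and 1094 UMIs. Its log2 ratios to the control were 0.49 (0.32 to 0.66) and then 0.74 (0.59 to 0.89). Ccne2 remained the minor cyclin E, with 2.64% of cyclin E UMIs among control cells (2.42 to 2.87), 3.68% among 3 h cells (3.42 to 3.96) and 4.22% among 6 h cells (3.98 to 4.47).

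Cdk2, the cyclin E kinase, had 19.1 CPM in the control library (18.3 to 19.9), 28.1 CPM after 3 h of cycloheximide (27.1 to 29.1) and 31.5 CPM after 6 h (30.6 to 32.4). The 3 h library was above the control by 0.56 on the log2 scale (0.48 to 0.64), and the 6 h library by 0.72 (0.65 to 0.80). The kinase of cyclin E was thus 1.65-fold higher at 6 h by CPM, while that of cyclin D was 1.02-fold higher.

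Cdc25a had 51.9 CPM in the control library (50.5 to 53.2), 76.5 CPM after 3 h of cycloheximide (74.8 to 78.1) and 87.3 CPM after 6 h (85.7 to 88.8). Its log2 ratio of 0.75 at 6 h (0.71 to 0.80) was not distinct from the 0.74 of Ccne2 (0.59 to 0.89), which was the higher of the pair in cells with at least 30000 UMIs (0.86 against 0.77). At 3 h the ratio was 0.56 (0.51 to 0.61). For both Cdk2 and Cdc25a the larger step lay between control and 3 h, with a log2 ratio of 0.16 and 0.19 from 3 h to 6 h. By mean UMIs per cell this second step was 0.0029 for Cdk2 and 0.030 for Cdc25a.

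Cdkn1b had 23.2 CPM in the control library (22.3 to 24.1), 29.1 CPM after 3 h of cycloheximide (28.1 to 30.1) and 36.3 CPM after 6 h (35.3 to 37.3). By CPM its steps were of like size, with log2 ratios of 0.33 at 3 h over control (0.25 to 0.40) and 0.32 at 6 h over 3 h (0.25 to 0.38). Scaled by mean UMIs per cell, the steps of Cdkn1b became 0.60 and 0.16, so that the larger step then lay between control and 3 h, as for Cdk2 and Cdc25a. E2f1, an activating E2F, had 16.1 CPM (15.4 to 16.9), 20.6 CPM (19.8 to 21.5) and 23.1 CPM (22.3 to 23.9). Its log2 ratio of 0.51 at 6 h (0.43 to 0.60) did not reach 1.5-fold, and it was 0.35 at 3 h.

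Relative to the median gene at 6 h, Cdc25a was at 0.58, Ccne2 at 0.57, Cdk2 at 0.56, Cdkn1b at 0.48 and E2f1 at 0.35. These 5 genes were above the control at both times under CPM, TMM factors and mean UMIs per cell. In the cells of low mitotic share the 6 h ratios were 0.73 for Cdc25a, 0.69 for Cdkn1b, 0.62 for Cdk2, 0.47 for Ccne2 and 0.41 for E2f1, the last 2 under 1.5-fold.

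**Figure D2:**
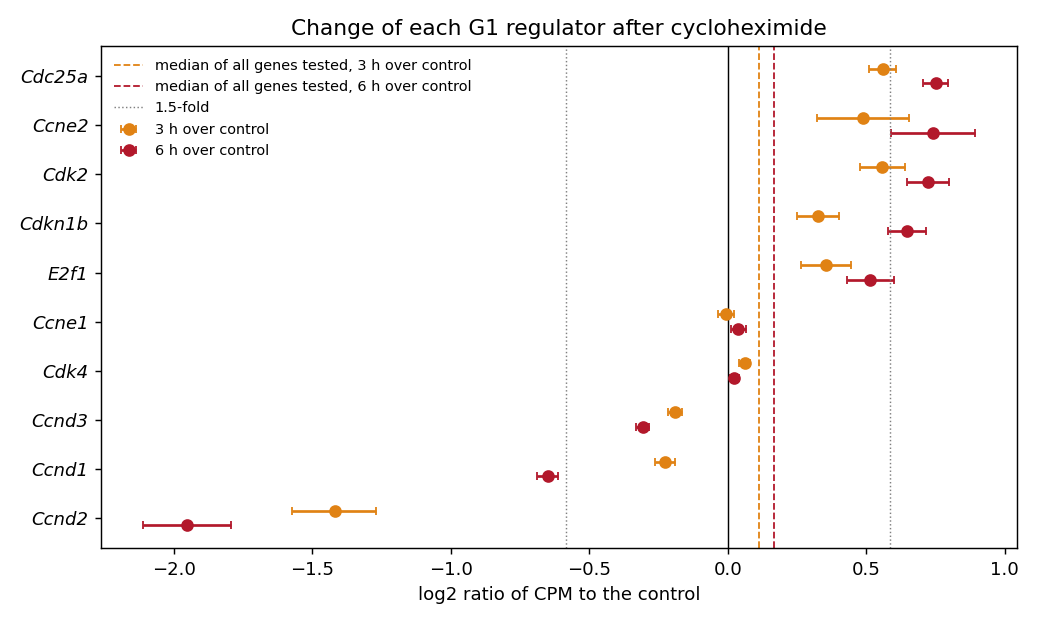
Log2 ratio of CPM to the control at 3 h and 6 h for each gene, ordered by the 6 h ratio; bars are exact conditional 95% intervals, dashed lines the median of all 7608 genes, and dotted lines 1.5-fold. Ccnd2 stands at -1.95 at 6 h and Cdc25a at 0.75, with Ccne1 and Cdk4 beside 0.

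Promoter windows were present in RefSeq (GRCm38.p6) for 7 of the 10 genes. They were searched on both strands for 4 words of the E2F consensus, TTTCCCGC, TTTGGCGC, TTTCGCGC and TTTGCCGC, in the 250 bases before the start site. Cdc25a and Cdk2 each held 1, and they are shown because these genes had the highest 6 h ratios among members above 10 CPM. At least 1 of the 4 words was present in 1.86% of all 32851 windows. The windows of Ccne1, Cdk4, Cdkn1b and Ccnd3 (2 windows) held none of these 4 words, nor did that of E2f1. Only exact matches were counted. The E2f1 start site lies 466 bases inside the gene as RefSeq bounds it. Its whole window lies within the gene, so bases upstream of the E2f1 gene were not searched. Both sequences are on the strand of the gene, 5′ to 3′, with the E2F word in capitals, at chr9:109875329-109875578 (+) and chr10:128705052-128705301 (-):
Cdc25a: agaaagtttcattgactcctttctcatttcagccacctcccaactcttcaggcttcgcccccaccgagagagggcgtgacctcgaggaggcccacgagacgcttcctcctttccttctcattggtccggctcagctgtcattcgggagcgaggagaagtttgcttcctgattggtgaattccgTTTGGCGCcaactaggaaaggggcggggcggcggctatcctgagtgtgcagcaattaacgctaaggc
Cdk2: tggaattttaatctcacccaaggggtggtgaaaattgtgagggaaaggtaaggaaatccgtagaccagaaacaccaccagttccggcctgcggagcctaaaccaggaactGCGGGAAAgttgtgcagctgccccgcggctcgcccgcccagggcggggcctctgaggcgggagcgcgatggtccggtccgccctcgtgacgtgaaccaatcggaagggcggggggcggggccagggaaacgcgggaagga
The word begins 67 bases upstream of the start site in Cdc25a and 140 bases upstream in Cdk2, where it is TTTCCCGC read on the other strand. The Cdc25a start site lies 61 bases inside the gene as RefSeq bounds it. No binding was measured.

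AU-rich words in the 3' untranslated region are known to mark short-lived messages, and 5 of the 10 genes held the word TATTTAT there in the GENCODE M21 transcript with the longest such region. It was present in 29.7% of 7486 genes above 10 CPM. The region ranged from 531 bases (Ccne1) to 5173 bases (Ccnd2) among members, beside a median of 1084.5 bases over those genes. Presence of the word was not adjusted for length. Cdkn1b and E2f1 had 3 each, and Ccnd1, Ccne2 and Cdk2 had 1 each. The E2f1 words that begin 638 and 642 bases after the stop codon overlap. Sites of 30 bases from the gene lowest at 6 h among these and from 2 that were higher are given to show that the word was present on either side, with TATTTAT in capitals:
Ccnd1: ctacagaagagTATTTATgggaaaggctgc
Cdkn1b: tttagtgcctgTATTTATccatcattactg
E2f1: aatggagcgttTATTTATttatcgaggcct
The Ccnd1 word begins 1280 bases after the stop codon, the first of Cdkn1b 2055 bases and the first of E2f1 638 bases after it. Ccnd2, with the lowest ratio, had 0 copies in 5173 bases, and Ccnd3, Ccne1, Cdk4 and Cdc25a had none either.

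All 10 are protein-coding genes in GENCODE M21 on GRCm38, the same build as the mm10 of the submitters' processing notes. The D-type cyclins are Ccnd1 (ENSMUSG00000070348) at chr7:144929931-144939925 (-), Ccnd2 (ENSMUSG00000000184) at chr6:127125162-127152193 (-) and Ccnd3 (ENSMUSG00000034165) at chr17:47505051-47599691 (+). The E-type cyclins are Ccne1 (ENSMUSG00000002068) at chr7:38097984-38107534 (-) and Ccne2 (ENSMUSG00000028212) at chr4:11191351-11204779 (+). The kinases are Cdk2 (ENSMUSG00000025358) at chr10:128697939-128705031 (-) and Cdk4 (ENSMUSG00000006728) at chr10:127063534-127067920 (+). The other regulators are Cdkn1b (ENSMUSG00000003031) at chr6:134920401-134925513 (+), Cdc25a (ENSMUSG00000032477) at chr9:109875579-109893895 (+) and E2f1 (ENSMUSG00000027490) at chr2:154559407-154569892 (-). Exons overlapped a gene on the other strand for 6 members. These were Ccnd1 with LTO1, Ccnd2 with Gm43126 and 9330179D12Rik, Ccnd3 with Bysl, Ccne2 with Ints8, Cdk2 with Pmel and Cdk4 with Tspan31. Whether counting used the strand is not given in the sources used here, so UMIs of such pairs could be split wrongly. In the control, 3 h and 6 h libraries LTO1 had 6.36, 12.9 and 17.7 CPM, opposite in direction to Ccnd1, and Bysl had 58.7, 67.3 and 68.5 CPM, opposite to Ccnd3. Ints8 had 20.4, 19.1 and 20.3 CPM. Pmel, with 3.44, 4.45 and 4.29 CPM, was higher with Cdk2 in both cycloheximide libraries, and Tspan31 had 49.3, 59.7 and 60.2 CPM. The Ccnd2 partners had at most 0.0285 CPM. Transcripts annotated as targets of nonsense-mediated decay numbered 1 each for Ccne1, Cdk4 and Cdc25a and 0 for the others.

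Shares of cells with a UMI were compared after every cell had been thinned to 15000 UMIs, the minimum of the selection, so that no cell was left out. A Ccnd1 UMI was present in 78.9% of control cells (77.2 to 80.6), 70.4% of 3 h cells (68.2 to 72.6) and 63.3% of 6 h cells (61.4 to 65.2). Unthinned, the shares were 95.3%, 94.2% and 89.0%. Ccnd2 was present in 13.0% (11.7 to 14.5), 6.50% (5.38 to 7.76) and 3.60% (2.91 to 4.40) of cells, and unthinned in 31.1%, 16.6% and 10.96%. Ccnd3 was widespread in each library, at 94.6%, 94.0% and 92.8%, and in at least 99.3% of cells without thinning. UMIs of all 3 D-type cyclins were found together in 220 control cells (10.1%, 8.83 to 11.4), in 80 cells of the 3 h library (3.66 to 5.69%) and in 54 cells of the 6 h library (2.11%, 1.59 to 2.75). None of the 3 was found at this depth in 24, 41 and 70 cells.

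Cdk4 was present in 99.5%, 99.7% and 99.6% of thinned cells, and Ccne1 in 88.1%, 89.8% and 90.8%. Cdc25a was present in 50.4% of control cells (48.3 to 52.5), 64.2% of 3 h cells (61.9 to 66.5) and 68.9% of 6 h cells (67.1 to 70.7), and unthinned in 83.2%, 93.4% and 92.7%. Cdk2 was present in 24.2%, 36.0% and 37.9% of cells, and the 3 h and 6 h intervals overlapped (33.7 to 38.3 and 36.1 to 39.9). Cdkn1b was present in 30.7%, 36.5% and 42.2%, E2f1 in 21.4%, 24.96% and 28.1%, and Ccne2 in 6.90%, 10.5% and 11.3%. Unthinned shares of Ccne2 were 19.4%, 30.1% and 31.8%, those of Cdk2 57.1%, 75.5% and 76.1%, those of Cdkn1b 64.4%, 74.6% and 79.9%, and those of E2f1 50.8%, 63.2% and 62.8%. The order of the thinned shares followed the order of CPM for the 3 D-type cyclins and for the 5 genes that were higher; the unthinned shares of Cdc25a and E2f1 were instead slightly lower at 6 h than at 3 h.

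Free RNA, measured in barcodes with 10 to 100 UMIs, held the same transcripts, and no cell type of these cultures could serve as a negative. Ccnd2 had 12.8, 2.72 and 2.30 CPM in free RNA, and Cdc25a had 43.35, 75.04 and 69.6 CPM. Cdk2 had 32.8, 42.7 and 40.3 CPM there, and Cdkn1b 25.8, 38.1 and 40.6 CPM. E2f1 had 24.5, 33.0 and 31.4 CPM, and Ccne2 5.84, 9.38 and 10.2 CPM. Cdk2, Cdkn1b, E2f1 and Ccne2 were thus higher in free RNA than in cells in every library. Ccnd1, Ccnd3, Ccne1, Cdk4 and Cdc25a were lower in free RNA than in cells in every library. If free RNA made up 10% of each cell, an assumed value, it alone would give a Ccnd2 UMI in 1.90% of control cells, 0.408% of 3 h cells and 0.344% of 6 h cells, and a Cdc25a UMI in 6.30%, 10.6% and 9.92%. These were below the measured shares in each library. With 10% free RNA subtracted, 29 of 30 member ratios stayed within the counting interval.

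**Figure D3:**
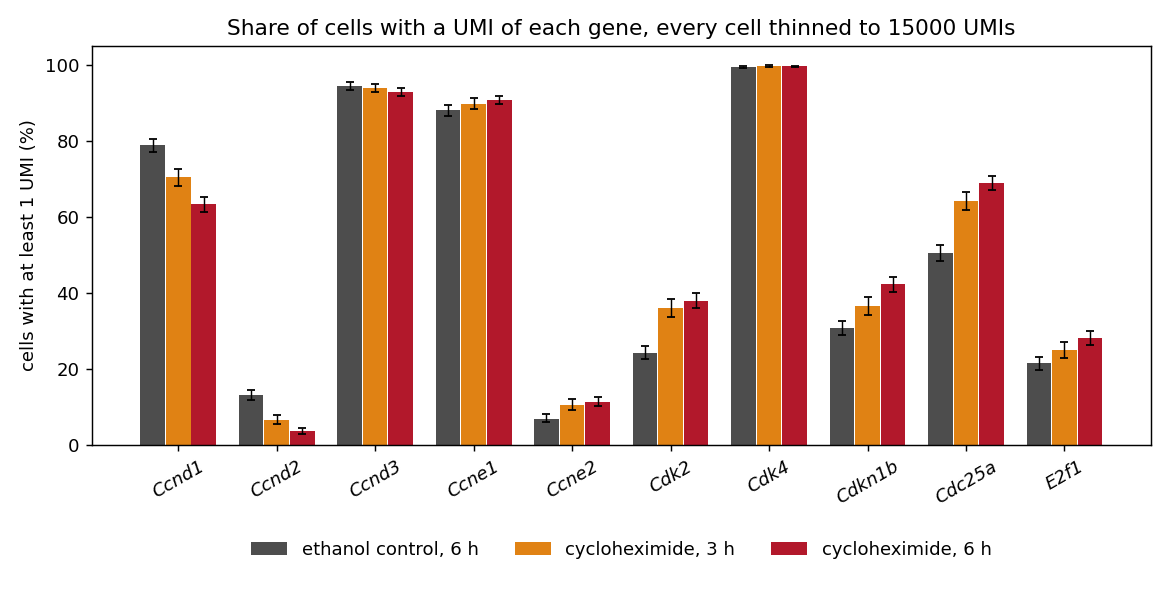
Share of cells with at least 1 UMI of each gene after thinning every cell to 15000 UMIs; bars are the 3 libraries and error bars exact Clopper-Pearson 95% intervals. Ccnd1 goes from 78.9% in the control to 63.3% at 6 h, and Cdc25a goes from 50.4% to 68.9%.

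Spread between cells was described by the excess squared coefficient of variation, that is the variance beyond Poisson counting over the squared mean, in thinned cells. Ccnd2 in the control stood out with 4.43, above 99.3% of 2285 genes with a mean within 1.5 times its own, whose median was 0.192. Ccnd1 had 0.194, 0.243 and 0.273 in the control, 3 h and 6 h libraries, each above about the same part of similar genes (92.3%, 92.3% and 91.8%). Ccnd3 had 0.152, 0.111 and 0.124, and Ccne1 had 0.144, 0.116 and 0.105, above 89.7%, 82.0% and 81.3% of similar genes. Cdk4 varied little, with 0.024, 0.024 and 0.035, beside medians of 0.036, 0.038 and 0.035 for similar genes. Among the less abundant members, Cdk2 had 0.239 in the control and values below 0 at both times (-0.068 and -0.0083), which is no more than counting noise. Ccne2 had 0.182 at 3 h and 1.11 at 6 h, above 42.2% and 92.1% of similar genes. The means of Ccnd2 at 3 h and 6 h and of Ccne2 in the control were under 0.1 UMIs per thinned cell and gave no value.

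To ask how the members vary with the cell cycle, cells of each library were ranked by their summed share of 20 mitotic transcripts, none of them a member, and cut into 4 bins of equal cell number. These are ranges of a score and not phases, and the mitotic transcripts had themselves moved: 6 of 20 were at least 1.5-fold lower at 6 h, and 19 of 20 were below the median gene. Median UMIs per cell went from 36143 in the lowest bin to 51118 in the highest bin of the control, from 46954 to 59018 at 3 h and from 39771 to 57075 at 6 h; the part of depth was not tested beyond thinning. Ccnd1 was higher in each successive bin of every library. It had 97.9, 109, 120 and 144 CPM in the control, 82.4, 91.5, 106 and 126 CPM at 3 h, and 65.2, 69.9, 79.2 and 86.9 CPM at 6 h. The log2 ratio of highest to lowest bin was 0.56 among control cells (0.48 to 0.63), 0.61 among 3 h cells (0.53 to 0.69) and 0.41 among 6 h cells (0.33 to 0.49).

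Cdkn1b showed the same direction, with 18.3 CPM in the lowest and 28.4 CPM in the highest bin of the control, 25.9 and 32.3 CPM at 3 h, and 30.3 and 42.1 CPM at 6 h. Its log2 ratio of highest to lowest bin was 0.63, 0.32 and 0.47 in the 3 libraries. Cdc25a had smaller ratios of 0.22, 0.11 and 0.28, and the 3 h value was -0.058 with cells thinned first. Ccnd1 in each bin of the 6 h library was lower than in the same bin of the control.

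Ccne2 ran the other way in the control, from 5.53 CPM in the lowest to 2.98 CPM in the highest bin, a log2 ratio of -0.89 (-1.30 to -0.49). At 3 h it was -0.64, which became -0.27 with an interval across 0 (-0.89 to 0.34) when cells were thinned before ranking, and at 6 h 0.081 with an interval that included 0 (-0.18 to 0.35). Ccnd2 went from 16.5 to 9.56 CPM in the control (-0.79, interval -1.01 to -0.56). It went the opposite way at 3 h, from 2.97 to 5.44 CPM (0.87, interval 0.45 to 1.31), and at 6 h from 3.23 to 4.41 CPM (0.45, interval 0.082 to 0.82), on 69 to 176 UMIs per lowest or highest bin. These intervals take UMIs as independent, but few cells held many of them. In the control, 3 h and 6 h libraries 64, 20 and 13 cells held 42.4%, 30.6% and 30.1% of thinned Ccnd2 UMIs. The highest unthinned count in 1 cell at 6 h was 23. The part of single cells in the Ccnd2 bin ratios was not tested. E2f1 and Ccne1 had ratios of -0.28 and -0.16 in the control, and intervals that included 0 at both times. Ccnd3 and Cdk4 differed between highest and lowest bin by at most 0.13 in size in each library.

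**Figure D4:**
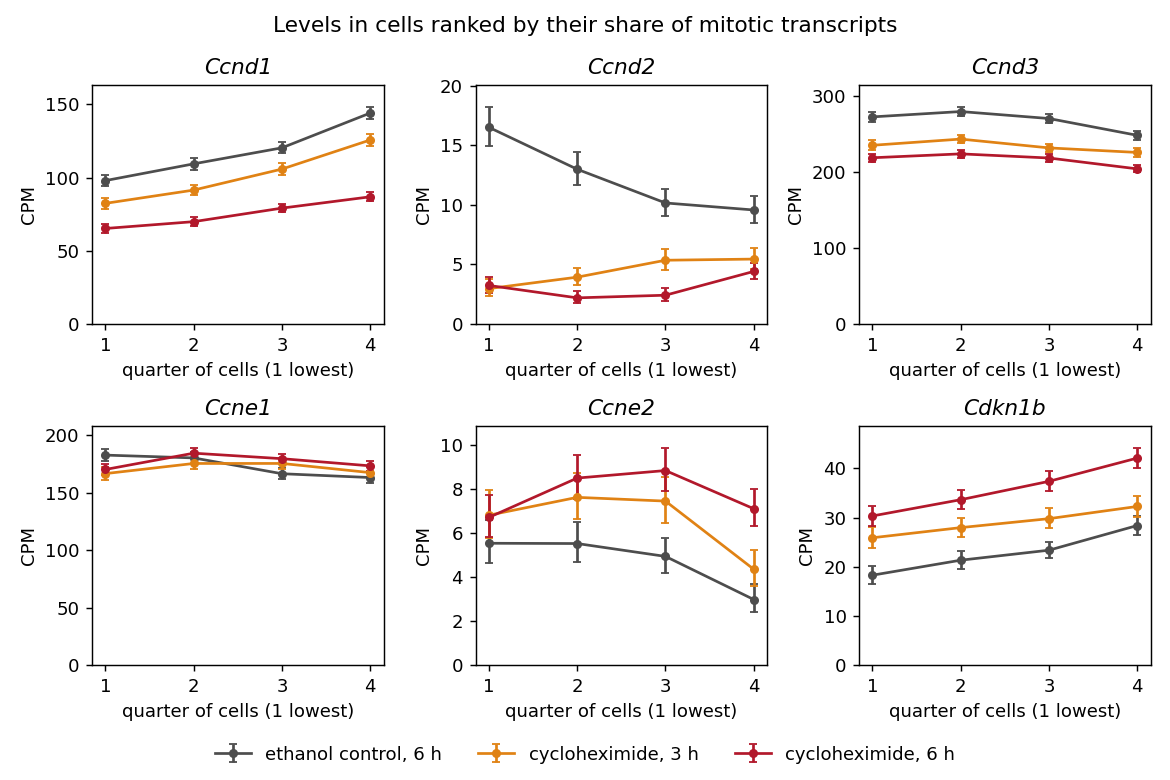
CPM of 6 members in cells ranked by their share of 20 mitotic transcripts and cut into 4 bins of equal cell number (1 lowest), per library; bars are exact Poisson 95% intervals. Ccnd1 and Cdkn1b slope upward in all 3 libraries, Ccne2 slopes downward in the control, and the Ccnd2 control line lies above both treated lines in each bin.

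The wider G1/S network was read from a list of 34 other genes, 28 of them above 10 CPM. At 6 h over control 4 were at least 1.5-fold higher and 3 at least 1.5-fold lower, against 22.1% and 7.79% of all genes. At 3 h the counts were 3 and 2, against 13.9% and 2.13%. Under TMM factors they were 3 and 6 at 6 h, against 11.6% and 16.9%. The median of the 28 at 6 h was 0.068, and 12 lay above the median gene. The highest at 6 h were inhibitors and a licensing factor. Cdkn2d, the p19 inhibitor of Cdk4 and Cdk6, had 20.9 CPM in the control library, 46.99 CPM after 3 h of cycloheximide and 74.6 CPM after 6 h, a log2 ratio of 1.84. Cdkn1a (p21) had 28.4, 30.5 and 60.1 CPM, so that its step came between 3 h and 6 h, and the licensing factor Cdc6 had 37.4, 67.3 and 76.4 CPM. The fourth was Mnat1, a subunit of the Cdk-activating kinase, at 0.64, which is named because it completes the count.

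Lowest at 6 h were E2f2 at -1.81, Orc1 of the origin recognition complex at -0.71 and Wee1, which phosphorylates and inhibits Cdk1 and Cdk2, at -0.64. E2f2 had 20.04 CPM in the control library, 8.94 CPM after 3 h of cycloheximide and 5.71 CPM after 6 h, opposite in direction to E2f1. E2f2 averaged 11.6 CPM and passed the limit of 10 CPM only through its control level. The limit thus favours its place among the genes counted as lower. E2f3, the remaining activator, had 34.3, 39.9 and 24.9 CPM. The other E2f genes (E2f4 to E2f8) had 6 h ratios from -0.14 to 0.15. Cdk6, the alternative partner of D-type cyclins, had 20.8, 23.2 and 21.7 CPM, and Ccna2 had 135, 129 and 139 CPM. The ligase subunits Skp2 and Fbxw7, which direct Cdkn1b and cyclin E proteins to degradation, had ratios of 0.22 and 0.33 at 6 h. Rb1 was below 10 CPM, with 8.04, 8.66 and 11.2 CPM.

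Among 25 textbook E2F targets of DNA replication, all above 10 CPM, 11 were at least 1.5-fold higher at 6 h and 0 at least 1.5-fold lower, against 22.1% and 7.79% of all genes. At 3 h the counts were 3 and 0, against 13.9% and 2.13%. Under TMM factors 3 of 25 were past 1.5-fold higher at 6 h, a share near the 11.6% of all genes. The list had a median of 0.29 after the shorter and 0.52 after the longer exposure, and 21 of 25 lay above the median gene at 6 h, whatever the scaling. The highest were Rpa2 (1.19), Gins1 (0.95) and Fen1 (0.93), and the lowest Dnmt1 (-0.19), Rrm1 (0.025) and Pcna (0.025). The list was chosen with earlier results of these data known, and it does not hold every gene of DNA replication. Others stood in the wider list, among them Orc1 (-0.71) and Cdc6 (1.03) at 6 h. The counts therefore hold for the 25 listed targets only.

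**Figure D5:**
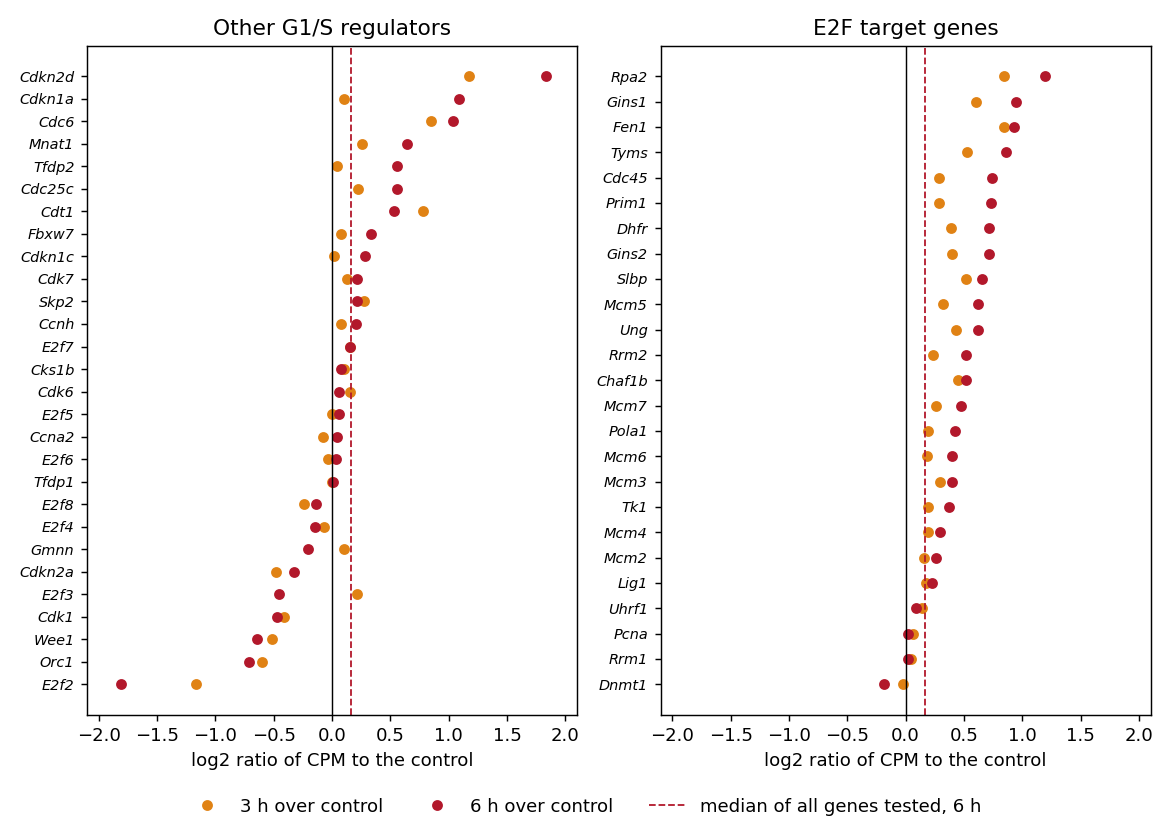
Log2 ratio of CPM to the control at 3 h and 6 h for the 28 other G1/S regulators and the 25 E2F target genes above 10 CPM, ordered by the 6 h ratio; the dashed line is the 6 h median of all 7608 genes. Cdkn2d (1.84) and E2f2 (-1.81) mark the ends of the left panel, and 24 of 25 points at 6 h lie above 0 in the right panel. E2f2 was above 10 CPM in the control library only.

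The genes with ratios most like those of the 2 extreme members were sought among genes averaging 20 CPM or more, by distance in the pair of log2 ratios. Cdc25a lay nearest to Tysnd1 (0.56 at 3 h and 0.74 at 6 h), Suv39h2 (0.57 and 0.74) and Cspp1 (0.56 and 0.77). Ccnd2 lay nearest to Neat1 (-1.42 and -1.89), Gm26917 (-1.44 and -1.86) and Xaf1 (-1.25 and -1.92). Each likeness rests on 3 libraries.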

How the data were processed

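The authors deposited raw UMI counts, integers for each gene and barcode of 3 libraries; per the file headers the software was Cell Ranger 4. Cell Ranger 4.0.0 and mm10 are named in the submitters' processing notes, and the annotation is not given in the sources used here. Each matrix listed 6794880 barcodes, so cells had not been called. Barcodes with at least 15000 UMIs and 1 to 20% mitochondrial UMIs were kept, and no doublets were removed. Summed counts were expressed as CPM, and log2 ratios used a prior of 0.5 counts. Intervals are exact Poisson, conditional binomial or Clopper-Pearson (95%) and cover counting error only. Calls were folds of at least 1.5 among genes averaging 10 CPM or more over the libraries. With 1 library per group no test was made, and cells were not used as replicates. Of the 32285 gene identifiers, 32158 matched GENCODE M21.

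The members and lists were chosen with earlier results of these data known. Of the list genes, those named are the 3 highest and 3 lowest at 6 h, a fixed set (Cdk6, Rb1, Cdkn1a, Ccna2, Skp2, Fbxw7 and the E2f genes), and the 3 nearest genes to the 2 extreme members. The words searched in promoters and 3' regions were chosen after the values were seen. Scripts were tested on simulated data. Alternatives were TMM factors (edgeR 4.0.16, R 4.3.3), mean UMIs per cell, another prior, other UMI and mitochondrial limits, removal of barcodes above 2 times the median UMIs, subtraction of free RNA, and cells of low mitotic share. Python 3.11.15, numpy 2.4.6 and scipy 1.17.1 were used.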

Additional observations from a re-analysis of the deposited data

How the results depend on the processing

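Scaling decided the counts of members past 1.5-fold. Against 3 higher and 1 lower at 6 h over control, TMM factors gave 0 higher and 2 lower (11.6% and 16.9% of all genes), and mean UMIs per cell gave 4 higher and 0 lower (27.8% and 5.49%). At 3 h over control, where the main count was 0, mean UMIs per cell gave 4 higher (30.1% of all genes). One was higher with cells under 1% mitochondrial UMIs kept (14.7% of all genes), with 10% free RNA subtracted (13.8%), or in cells of low mitotic share (14.8%): the count was 1 in each. A fold of 1.3 gave 2 higher at 3 h (25.4%) and 1 lower at 6 h over 3 h (6.51%). Without a level limit 1 was lower at 3 h (10.4%) and 2 at 6 h (12.2%) over control, and a limit of 50 CPM left 1 higher at 6 h (15.2%). Of 303 member ratios recomputed, 224 stayed within the counting interval, 15 changed sign and 0 of those past 1.5-fold did. The sign changes concerned Ccne1 and Cdk4 ratios near 0, Ccnd1 and Ccnd3 at 3 h by mean UMIs per cell (0.043 and 0.079, from -0.23 and -0.19), and E2f1 from 3 h to 6 h (-0.00031 by mean UMIs per cell). Shares of cells depend on depth, and all 60 alternative shares lay outside the interval of the value at 15000 UMIs. Thinning to 30000 UMIs left out 311, 193 and 313 cells. No paired analysis was possible because each group has 1 library. Depth limited Ccnd2 and Ccne2 most, with 435 and 520 UMIs in their lowest libraries; the spread between cultures cannot be told from these libraries.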

Other observations

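Control cells with at least 2 Ccnd2 UMIs after thinning to 15000 UMIs were looked at after the spread of Ccnd2 had been seen. There were 64 of 2187 (2.93%, interval 2.26 to 3.72), and they held 42.4% of thinned Ccnd2 UMIs. At 3 h there were 20 (1.15%, interval 0.704 to 1.77) and at 6 h 13 (0.509%, interval 0.271 to 0.869). Without such cells in any library, an alternative added after the data were seen, the log2 ratio of Ccnd2 to the control became -1.31 for the 3 h library and -1.83 for the 6 h library. Ccnd2-rich control cells had a median of 39260 UMIs beside 43222 in the rest, and 4.58% beside 4.57% mitochondrial UMIs.

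In these cells Ccnd3 was lower, with 208 CPM beside 269 CPM in the rest (log2 ratio -0.36, interval -0.48 to -0.25), while Ccnd1 had 145 CPM beside 119 CPM (0.29, interval 0.14 to 0.42). Cdc25a was also higher, with 62.8 CPM beside 51.6 CPM (0.29, interval 0.067 to 0.49). Ccne1 had 194 CPM beside 172 CPM (0.18, interval 0.054 to 0.29). For Ccne2, Cdk2, Cdk4, Cdkn1b and E2f1 the intervals included 0. The 8 embryonic stem cell markers summed to 6324 CPM beside 6666 CPM, and most of that difference was Dppa5a (4464 beside 4780 CPM). Klf4 (114 beside 134 CPM), Tdgf1 (331 beside 365 CPM), Nanog (116 beside 124 CPM) and Pou5f1 (522 beside 533 CPM) were also lower, while Zfp42 (484 beside 454 CPM), Sox2 (228 beside 212 CPM) and Esrrb (65.7 beside 64.0 CPM) were higher. The intervals of the Nanog, Pou5f1, Sox2 and Esrrb ratios included 0. Markers of other lineages stayed low, from 0 CPM for 2-cell-like genes to 13.9 CPM for neural genes, which had 9.30 CPM in the rest. These cells were chosen by their Ccnd2 count, and the differences compare cells of 1 library, with counting intervals only.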
